A study of Caenorhabditis elegans with 2 samples.

Results

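The translation factors and aminoacyl-tRNA synthetases of Caenorhabditis elegans were followed through chromatin immunoprecipitation and sequencing (ChIP-seq) of LIN-11, a LIM homeodomain transcription factor. The members were chosen by gene name, a rule that uses no measured value but was set with earlier results of these data known: protein-coding genes named eif-, eef-, ife-, ifg- or iff- with a number, and synthetase genes named by the letter of the amino acid, ars and a number. They came to 71 of the 19973 protein-coding genes on nuclear chromosomes, namely 39 factors and 32 synthetases. RefSeq's product names matched the label for the synthetases, all 32 of which were annotated as ligases or synthetases by name or by domain. The name rule leaves out factors with other gene names, such as egl-45 (an eIF3 subunit) and inf-1 (eIF4A).

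The series held 1 group of 2 biological replicates. Both were whole late embryos of mixed sex, aged 4.25 hours with no starting point given, synchronised by egg bleaching. The strain, OP62, had the genotype unc-119(ed3) III with the integrated transgene wgIs62, which expresses LIN-11 fused at its C-terminus to GFP and FLAG. No mutation of the worm's own lin-11 gene is listed, so the recovered protein is the tagged copy beside an untagged one. An antibody against GFP was used for the recovery. What drives the transgene is not stated, and a whole embryo averages over all of its cells. With no second condition, no difference between conditions could be tested, and every share below is a description. Region lists hold no expression values, so the labelled stage was not checked against marker genes.

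Translation starts when initiation factors bring the initiator tRNA and the small ribosomal subunit to the messenger RNA. Elongation factors then deliver each charged tRNA and move the ribosome along. The synthetases charge tRNAs with their amino acids, with separate enzymes for the cytoplasm and the mitochondria for many amino acids. These genes are active in nearly all cells, whereas LIN-11 is best known from the fates of certain neurons and of vulval cells. Many worm genes lie in operons and receive a leader by trans-splicing, so an annotated transcription start site (TSS) can differ from where RNA polymerase begins.

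The sequences at the strongest summits of 6 members show what lay under the highest point of the signal. The first 4 had reproducible regions, tars-1 is the member with the highest pooled signal outside the reproducible list, and eef-1A.2 is the paralog of eef-1A.1. A reproducible region also stood at eif-3.C, whose sequence is not shown. Each was read from RefSeq's WBcel235 genome, which is ce11, on the strand of the member and at most 60 bases to either side of the summit, leaving out annotated UTR bases. The 11 bases centred on the summit are in capitals.

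ears-2, chrIV:390469-390559, minus strand: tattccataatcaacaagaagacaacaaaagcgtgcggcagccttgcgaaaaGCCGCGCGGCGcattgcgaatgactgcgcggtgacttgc
eif-3.D, chrIII:8971808-8971891, minus strand: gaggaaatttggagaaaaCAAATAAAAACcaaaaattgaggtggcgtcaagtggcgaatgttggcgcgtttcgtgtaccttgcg
eef-1A.1, chrIII:6972042-6972162, minus strand: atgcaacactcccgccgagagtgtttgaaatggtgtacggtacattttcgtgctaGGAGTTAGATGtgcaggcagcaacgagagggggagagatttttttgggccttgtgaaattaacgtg
iff-2, chrII:8561368-8561450, minus strand: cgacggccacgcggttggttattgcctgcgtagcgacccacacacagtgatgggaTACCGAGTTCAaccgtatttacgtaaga
tars-1, chrII:11694570-11694690, minus strand: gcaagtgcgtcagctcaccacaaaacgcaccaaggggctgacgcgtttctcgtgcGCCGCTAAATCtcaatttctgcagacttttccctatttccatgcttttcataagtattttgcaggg
eef-1A.2, chrX:7823172-7823292, plus strand: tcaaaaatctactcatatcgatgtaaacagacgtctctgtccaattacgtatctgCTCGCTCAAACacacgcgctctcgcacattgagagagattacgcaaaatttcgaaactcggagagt

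The ears-2 stretch is the whole space between ears-2 and its divergent neighbour uncp-18, 53.8% G and C. The summits of both eEF1A genes had GAGAGA on their downstream side, from 27 to 32 bases past the eef-1A.1 summit and in overlapping copies from 25 to 32 bases past the eef-1A.2 summit. GAGAGA was not particular to this pair. It was also near the summits of eif-2D and ife-3, which are not shown. Over all nuclear summits it lay within 50 bp of 14.5% of the reproducible and 9.34% of the pooled ones. The eef-1A.2 stretch also held TAATTG on the other strand, from 19 to 14 bases before its summit. Besides GAGAGA and TAATTG, the words TAATTA (homeodomain-type) and CACGTG (E-box) were sought on both strands, and the other 4 stretches held none of the 4 words.

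A reproducible LIN-11 region had its summit within 1000 bp of a start site of 5 members: ears-2, eif-3.C, eif-3.D, eef-1A.1 and iff-2. That is 7.04% of the 71 (exact Clopper-Pearson 95% interval 2.33 to 15.7), beside 2.1% of all protein-coding genes (420 of 19973). The reproducible list holds the 560 regions that passed the authors' reproducibility threshold, 539 of them on nuclear chromosomes. All 5 summits lay upstream of the member's start, by 23 to 390 bp. Over the 420 genes with a reproducible summit, 82.9% of the strongest ones lay upstream. The median position was 236 bp upstream for the 5 members and 232.5 bp upstream for the 420 genes. With replicate 2's strongest 560 regions alone the count was 8 (11.3%, 4.99 to 21, beside 2% of all genes), and with replicate 1's it was 4 (5.63%, 1.56 to 13.8, beside 2.05%). The count was 3 when each summit was given only to the gene of its nearest TSS, and 2 among the reproducible regions with signal above the median of the list. The intervals cover counting error over genes only.

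The full pooled list, which includes weak regions, was deposited as peaks and background, so a summit in it need not be a bound site. In that list 48 of the 71 members had a summit (67.6%, 55.5 to 78.2), beside 39% of all protein-coding genes. The authors' −log10 q at the strongest one (higher is stronger) ran from 0.024 at lars-2 to 2.84 at ears-2. It was 0.267 at fars-3 (rank 3716) and 0.22 at ife-2 (rank 4411), the members on either side of the median rank. The list of replicate 1 gave 44 (62%, 49.7 to 73.2, beside 40.4%) and that of replicate 2 gave 38 (53.5%, 41.3 to 65.5, beside 37%). Both replicates had a summit at 30 members (42.3%, beside 23.6% of all genes). The strongest pooled summit ranked within the first 2000 regions at 16 members (22.5%, beside 6.55% of all genes). Among genes with a pooled summit, the median rank of the strongest one was 4063.5 for the 48 members and 7911 for the 7780 genes in all. More than 1 annotated start site, which widens the searched stretch, was present at 37 of 71 members (52.1%) and at 27.4% of all genes. Counting only the outermost start site left 42 of 71 members and 36.3% of all genes. Which share of the difference goes with the number of start sites was not tested.

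**Figure D1:**
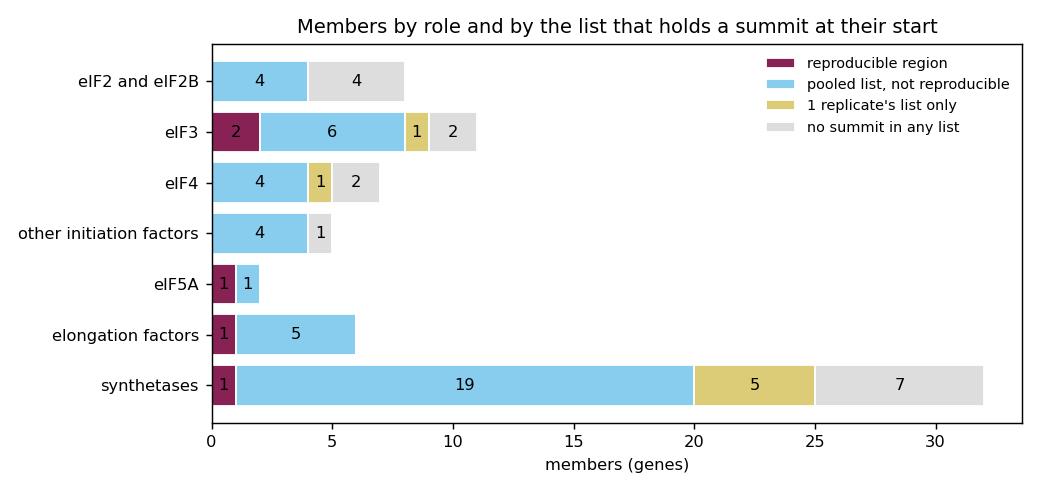
Number of members (horizontal axis, genes) in each role group, split by whether a summit within 1000 bp of a start site was in the reproducible list, in the pooled list only, in 1 replicate's list only or in none. Reproducible regions stood at 2 eIF3 genes and at 1 gene each of eIF5A, the elongation factors and the synthetases.

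The strongest region within 1000 bp of any member's start stood at ears-2 (WBGene00001338, ce11, chromosome IV, 388686 to 390468, minus strand), which RefSeq names the mitochondrial glutamyl-tRNA synthetase. The region (390348 to 390642, 295 bp wide) had a signal of 561, rank 35 of the pooled list. In replicate 1 its signal was 339, rank 34, and in replicate 2 it was 221, rank 48. The 2 replicates placed the summit 33 and 34 bp upstream of the ears-2 start, 1 bp apart. Signals are the authors' own values and are compared only within a list. The summit lay between genes, 58 bp upstream of uncp-18 on the other strand, so it cannot be given to either gene. It was 16899 bp from the nearest tRNA, snoRNA, snRNA or miRNA gene. For ears-1, the other gene of that amino acid, no list had a summit.

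eIF3 is the large complex that holds the small ribosomal subunit and the messenger RNA together during initiation. Of its 11 subunit genes named by the rule, 2 had a reproducible region and 6 more only a pooled one. In the pooled list that was 8 of 11 (72.7%), beside 39% of all protein-coding genes. The share of all genes with a reproducible summit was 2.1%. The region of eif-3.C (WBGene00001226, chromosome I, 9976426 to 9979662, minus strand) spanned 9979838 to 9979968, with a signal of 289 and rank 136. It ranked 161 in replicate 1 (signal 154) and 117 in replicate 2 (signal 136), with the pooled summit 236 bp upstream of eif-3.C and no other gene's start within 1000 bp. A second pooled region, at rank 12635, had its summit 435 bp upstream.

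The region of eif-3.D (WBGene00001227, chromosome III, 8969635 to 8971578, minus strand) spanned 8971653 to 8972082, with a signal of 179 and rank 285. The replicates gave close ranks, 297 in replicate 1 (signal 102) and 295 in replicate 2 (signal 77.7). Its summit was 290 bp upstream of eif-3.D but 24 bp upstream of R08D7.4, which is transcribed the other way. A single summit between divergent genes cannot be given to either gene.

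Next among the eIF3 genes came eif-3.J (pooled rank 751, 929 bp upstream), eif-3.I (rank 931, 200 bp upstream), eif-3.G (rank 1475, 318 bp upstream) and eif-3.B (rank 2310, 294 bp upstream). The eif-3.J summit lay in an annotated UTR of slc-25A46 upstream. Replicate 1 ranked eif-3.J at 1467. Replicate 2 had no summit in the window, although a region of it at rank 628 covered the pooled summit. At eif-3.I, 2 pooled regions ranked 931 and 991, one at each of the gene's 2 start sites. Replicate 1 had its strongest eif-3.I summit at rank 1951, and replicate 2 at rank 586 at the other start site, with rank 916 at the first. eif-3.G ranked 2992 in replicate 1 and 4402 in replicate 2, and eif-3.B ranked 1374 in replicate 1 and 8814 in replicate 2. The pooled summits of eif-3.E and eif-3.H ranked 6482 and 13139. These ranks, and those of the eef-1B and eIF2 genes, fall outside the rule for named genes and were chosen after the values were seen. For eif-3.F only replicate 1 had a summit, and eif-3.K and eif-3.L had none in any list.

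Elongation factor genes had a pooled summit at 6 of 6, beside 39% of all protein-coding genes. At 4 of the 6 the strongest one ranked within 2000, beside 6.55% of all genes. eEF1A delivers charged tRNAs to the ribosome, and the promoter of eef-1A.1, also known as eft-3, is widely used to drive transgenes in most worm tissues. The region of eef-1A.1 (WBGene00001168, chromosome III, 6970026 to 6971712, minus strand) spanned 6971887 to 6972316, with a signal of 138 and rank 444. It ranked 512 in replicate 1 (signal 76.3) and 335 in replicate 2 (signal 72.5). The summit lay 390 bp upstream of eef-1A.1 and 151 bp upstream of the divergent gene rfc-4, a replication factor C subunit. The microRNA gene mir-5549 was 17 bp from it. The part of that gene in the signal was not tested.

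The paralog eef-1A.2 (WBGene00001169, chromosome X, 7823654 to 7825769, plus strand) fell outside the reproducible list, with a signal of 102 and rank 748 (region 7823017 to 7823446). It ranked 1706 in replicate 1 (signal 49.3) and 477 in replicate 2 (signal 59.9). The pooled summit was 422 bp upstream and no other gene started within 1000 bp. Both summits lay between genes, and how reads shared by near-identical copies were counted is not stated. Replicate 2 ranked both paralogs higher than replicate 1 did.

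The remaining elongation factors were weaker. eef-2, which moves the ribosome by a codon, had a summit 47 bp upstream at pooled rank 1461, with rank 3465 in replicate 1 and 947 in replicate 2. That summit was also 218 bp upstream of clsp-1. eef-1G had one 2 bp downstream of a start site at rank 1327, in its annotated UTR, with rank 7114 in replicate 2 and none in replicate 1. The pooled summits of eef-1B.1 and eef-1B.2, which exchange the nucleotide on eEF1A, ranked 14781 and 12406, and eef-1B.1 had none in either replicate. Their −log10 q was 0.0393 and 0.0519. The eef-1B.1 summit lay in an intron of aco-2, 584 bp upstream of eef-1B.1 but 129 bp from a start of aco-2. That of eef-1B.2 lay 922 bp upstream, in an intron of fcd-2.

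eIF5A helps the ribosome through difficult stretches of sequence, and the worm has a germline gene, iff-1, and a somatic one, iff-2. The region of iff-2 (WBGene00002065, chromosome II, 8559375 to 8561367, minus strand) spanned 8561175 to 8561604, with a signal of 128 and rank 483, the weakest of the 5. It ranked 625 in replicate 1 (signal 68.5), outside that replicate's strongest 560, and 440 in replicate 2 (signal 61.4). The summit was 23 bp upstream of iff-2 and 618 bp from the nearest small RNA gene, the snoRNA gene F54C9.12. For iff-1 the pooled rank was 2421, and the regions covering that summit ranked 3600 in replicate 1 and 14280 in replicate 2. The strongest iff-1 summit of replicate 2 ranked 11702 and lay elsewhere, 574 bp downstream of a start site. The pooled summit of iff-1 was 167 bp upstream of it but 112 bp upstream of cdk-1, a kinase of the cell cycle that runs the other way.

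**Figure D2:**
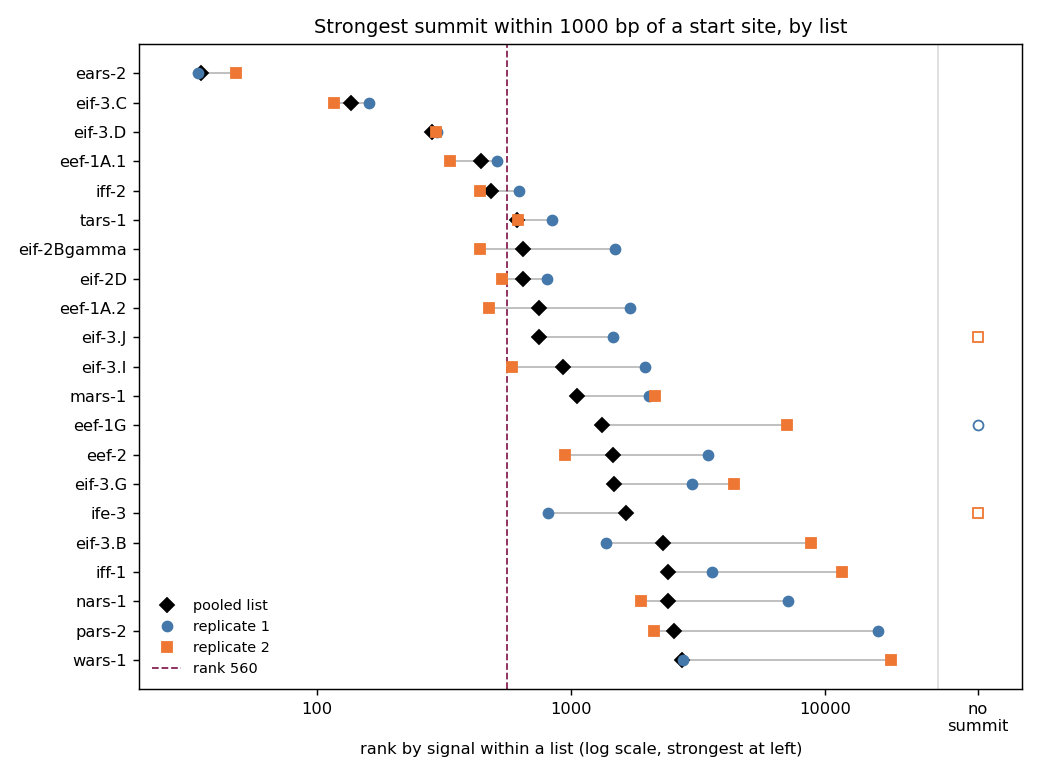
Rank by signal (horizontal axis, log scale, strongest at left) of the strongest summit within 1000 bp of a start site of 21 members, in the pooled list (diamonds), replicate 1 (circles) and replicate 2 (squares). Open symbols at the right mark a list with no summit in the window, and the dashed line is rank 560. The 3 ranks lay close together at ears-2 (34 to 48) and far apart at wars-1 (2738 to 18287).

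eIF2 carries the initiator tRNA and eIF2B recharges it with GTP, and neither set had a reproducible region. All 3 eIF2 subunit genes had a pooled summit, at ranks of 8174 to 10795, and in the window each of them had a summit in replicate 2 but not in replicate 1. These pooled summits were weak, with a −log10 q of 0.0696 to 0.1. The one of eif-2alpha lay in its own coding exon, 105 bp downstream of a start site, and that of eif-2gamma in a coding exon of tbca-1. At eif-2beta the sites differed: the pooled summit, 982 bp upstream, was covered by a replicate 1 region at rank 8774 and by none in replicate 2, whose own summit was 181 bp upstream. Of the 5 eIF2B subunit genes, the gamma subunit gene alone had a pooled summit (20%), beside 39% of all protein-coding genes. The other 4 had none in any list. The eif-2Bgamma summit (chromosome II, region 6968137 to 6968566, signal 109, rank 645) was 704 bp upstream of its start, in an intron of C15F1.5. It ranked 1497 in replicate 1 and 438 in replicate 2. It lay 42 bp from sup-39, annotated by RefSeq as an snRNA gene, whose part in the signal was not tested.

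Among the cap-binding and other initiation genes, eif-2D came highest. In mammals eIF2D is known to act in ribosome recycling and in initiation on unusual messages. The region (chromosome II, 5691379 to 5691808) had a signal of 109, rank 647, and ranked 808 in replicate 1 and 536 in replicate 2. Its summit was 127 bp upstream of eif-2D and 241 bp upstream of the divergent gene ndub-5. ife-3, which encodes a cap-binding eIF4E, had a summit 977 bp upstream at rank 1655, with rank 812 in replicate 1. Replicate 2 had none in the window, although a region of it at rank 12369 covered the pooled summit. That summit was 66 bp upstream of B0348.10. The other members with a pooled summit were ife-1, ife-2, eif-4A3, eif-1, eif-1.A and eif-6. Genes were grouped by name, and RefSeq's product for eif-4A3 says only RNA helicase. Replicate 2 alone had a summit for ife-4, and ife-5, ifg-1 and eif-2A had none in any list. ifg-1 encodes eIF4G, the scaffold of the cap-binding complex.

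A reproducible region stood at 1 of the 32 synthetase genes, ears-2, beside 2.1% of all protein-coding genes. A pooled summit stood at 20 of 32 (62.5%), beside 28 of 39 factors (71.8%) and 39% of all protein-coding genes. These shares are a description without a test. Below ears-2, tars-1 (chromosome II, 11691325 to 11695657, minus strand) came nearest to the reproducible list, with a signal of 112 at rank 614. The weakest reproducible region had 117. tars-1 ranked 839 in replicate 1 (signal 61.5) and 621 in replicate 2 (signal 52.7). Its summit, in the region 11694415 to 11694844, lay 337 bp upstream of one of its 3 start sites, within introns of both tars-1 and kel-1, and 198 bp upstream of kel-1, so it was nearer to that gene.

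mars-1, which charges the methionine tRNA, had a summit 357 bp upstream at rank 1059, with rank 2033 in replicate 1 and 2142 in replicate 2. Further down were nars-1 (rank 2423, 381 bp upstream), pars-2 (rank 2543, 388 bp upstream of a start site and within its intron) and wars-1 (rank 2738, 121 bp upstream). nars-1 ranked 7160 in replicate 1 and 1891 in replicate 2, with its pooled summit nearer to nduf-6. pars-2 ranked 16191 in replicate 1 and 2119 in replicate 2. wars-1 ranked 2768 in replicate 1 and 18287 in replicate 2. The replicates ranked these 3 genes far apart.

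The other synthetase genes with a pooled summit were fars-3, aars-2, sars-2, nars-2, rars-1, pars-1, dars-1, iars-2, fars-2, yars-1, aars-1, yars-2, lars-1 and lars-2. In 1 replicate only, a summit stood at dars-2, hars-1, iars-1, qars-1 (replicate 1) and kars-1 (replicate 2). cars-1, ears-1, fars-1, gars-1, rars-2, sars-1 and vars-1 had none in any list. Of the 20 amino acids, 11 had more than 1 gene, and all genes of an amino acid had a pooled summit in 5 of the 11 and some of them in the other 6. RefSeq's products named 10 synthetases cytoplasmic, of which 7 had a pooled summit and 0 a reproducible one. They named 3 mitochondrial, of which 2 had a pooled summit and 1 a reproducible one. For the other 19 the product named no compartment, and 11 of these had a pooled summit and 0 a reproducible one. Over all protein-coding genes the shares were 39% and 2.1%.

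**Figure D3:**
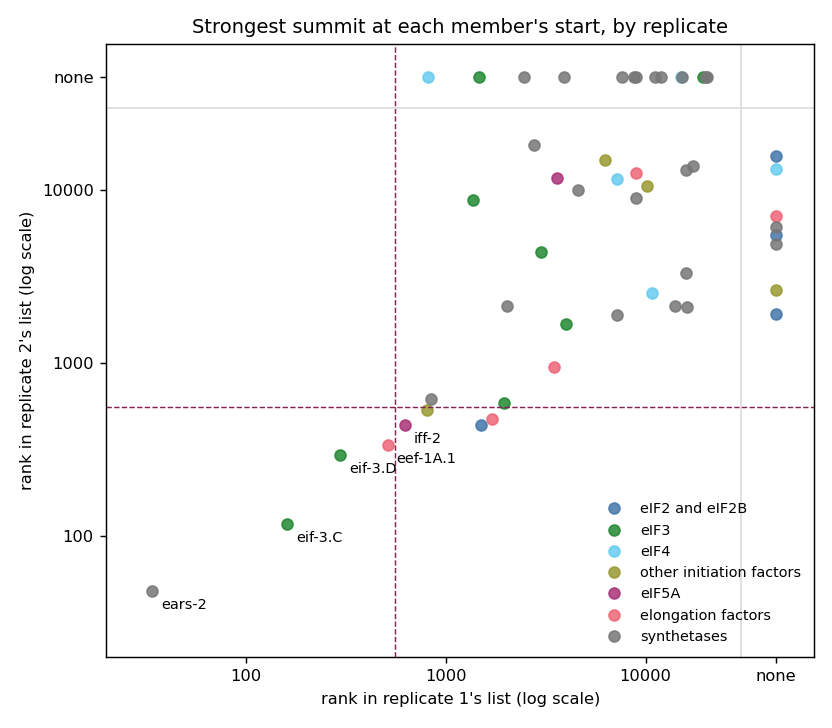
Rank of each member's strongest summit in replicate 1 (horizontal axis) and replicate 2 (vertical axis), both on log scales, coloured by role, with members that had no summit in a replicate at the outer edge. Dashed lines mark rank 560, and the 5 labelled members have reproducible regions.

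The replicates placed the summits of the 5 reproducible members 1 to 31 bp apart. For the other 25 members with a summit in both replicates, the strongest ones were 9 to 2168 bp apart, with a median of 135 bp. The reproducible list was itself made from these replicates, so the 2 ranges are not an independent comparison. Over all 30 members the median was 104 bp, beside 190 bp for the 4705 genes with a summit in both. Of the 48 strongest pooled summits, 30 were covered by a region in both replicates (62.5%, beside 40.8% for all genes), 10 in replicate 1 only, 5 in replicate 2 only and 3 in neither. The last were those of eif-3.H, eef-1B.1 and lars-2.

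Members' summits lay mostly upstream. Of the 48 strongest pooled summits, 39 were upstream of the member's nearest start site (81.2%, beside 63.4% of the 7780 genes) and 30 were within 500 bp upstream (62.5%, beside 41.9%). The members' median position was 292 bp upstream, that of all genes 143 bp and that of the ribosomal protein genes 282.5 bp upstream. The summit was nearest to a start of the member itself in 34 of 48 (70.8%), beside 84.6% for all genes. A divergent neighbour was common: the nearest protein-coding gene upstream lay within 1000 bp on the other strand at 30 of 71 (42.3%), beside 17.2% of all genes, a description of the annotation. Within that arrangement 4 of 30 members had a reproducible summit (13.3%), beside 4.71% of all such genes, and 20 had a pooled one (66.7%, beside 46%). Among members with an upstream gene on the same strand within 1000 bp, 16 of 24 had a pooled summit (66.7%, beside 36.3%). These shares were not tested against each other.

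**Figure D4:**
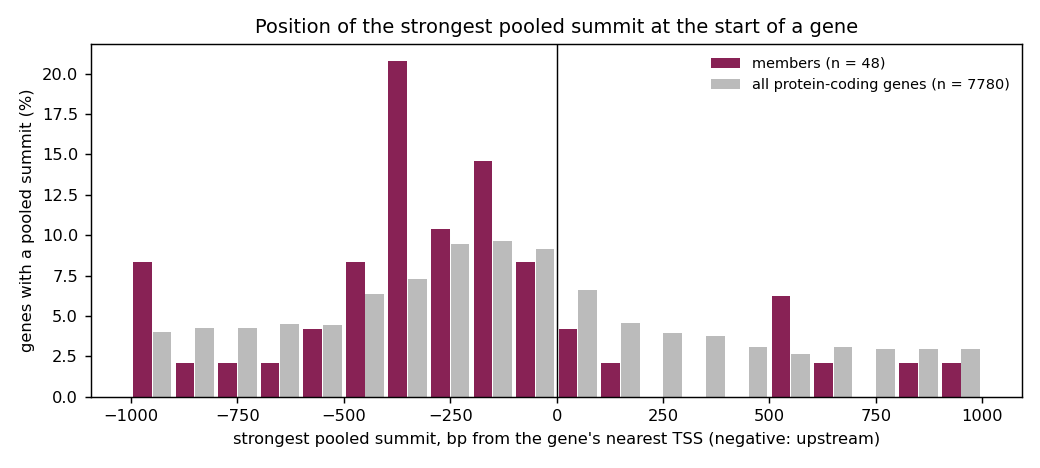
Position of the strongest pooled summit relative to the gene's nearest TSS (horizontal axis, bp, negative upstream) as a share of genes with a pooled summit (vertical axis, %), in bins of 100 bp, for 48 members and for 7780 protein-coding genes. The members' summits gathered between 500 bp upstream and the start.

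A tRNA, snoRNA, snRNA or miRNA gene lay within 200 bp of the strongest pooled summit at 2 of 48 members (4.17%, beside 2.92% of the 7780 genes) and of the strongest reproducible summit at 1 of 5 (20%, beside 26.2% of the 420 genes). No strongest pooled summit of a member lay within 200 bp of a tRNA gene (0 of 48, nearest 4501 bp), beside 137 of 7780 genes (1.76%). The 2 members with any small RNA gene within 200 bp were eef-1A.1 and eif-2Bgamma. Leaving out all summits at small RNA genes left 4 members with a reproducible summit (all genes 1.56%) and 47 with a pooled one (all genes 38.1%).

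Other genes of translation were counted in the same way, beside 2.1% of all genes with a reproducible summit and 39% with a pooled one. Of 20 further genes found in the annotation, covering termination, poly(A) binding, control by nutrients or stress, and mitochondrial elongation, 2 had a reproducible summit (10%) and 12 a pooled one (60%). The 2 were erfa-3, which encodes a release factor (rank 252, 318 bp upstream, 254 in replicate 1 and 261 in replicate 2), and pab-2, which encodes a poly(A)-binding protein (rank 513, 117 bp upstream, 684 in replicate 1 and 771 in replicate 2). Among 78 cytoplasmic ribosomal protein genes, 10 had a reproducible summit (12.8%, 6.32 to 22.3) and 66 a pooled one (84.6%, 74.7 to 91.8), with a median pooled rank of 2511.5. The members' shares were 7.04% and 67.6%, and no difference between the groups was tested.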

How the data were processed

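Per the deposited notes, the authors' region lists are on ce11. A pooled list of 20692 regions was made from both replicates' alignments, and lists of 21441 and 18735 regions from replicates 1 and 2, each with 1 control alignment. The reproducible list of 560 regions derives from these 3, and all 560 were the strongest of the pooled list. For aligner, caller and thresholds, nothing is stated in the material used. The deposited signal score per region, whose scale is not stated, set the order of regions inside each list. The authors' −log10 q values played no part in ranks. Summit positions came from the deposited offsets. Depth is unknown from region lists.

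Gene models came from Ensembl release 115 (WBcel235, the same assembly as ce11) and small RNA genes, products and sequence from RefSeq. Genes were counted when at least 1 summit fell 1000 bp or less from one of their TSSs, the highest-ranked being the strongest. Intervals, where given, are exact Clopper-Pearson 95% intervals for the share of genes with a summit in a list (scipy 1.17.1, Python 3.11.15). The other shares carry none. No list of genes was tested, since the members, the lists and the rules were chosen with earlier results of these data known. Values are given for members with a reproducible summit, for those with a pooled rank up to 2000 and for the next 5 in rank. Of 22 further translation genes listed, 20 were found by name. Words were searched in both orientations up to 50 bp from a summit. Alternatives were other windows, start sites, assignments, signal cuts and single replicates.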

Additional observations from a re-analysis of the deposited data

How the results depend on the processing

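The count of 5 members with a reproducible summit was 5 with a 500 bp window, with the outermost start site only and with any overlap of the region, 6 with a 2000 bp window and 4 without summits at small RNA genes. It was 3 when each summit went to the nearest TSS only, where eif-3.D and eef-1A.1 lost theirs to a divergent neighbour (all genes 1.55%). It was 2 among regions with signal above the median of the list (all genes 0.911%), a setting that by construction keeps fewer regions. Single replicates gave 4 to 8. The count of 48 members with a pooled summit ranged from 36 (500 bp window, all genes 27.7%, or nearest TSS only, 34.2%) to 54 (2000 bp window, 53.3%), and single replicates gave 38 to 44. No paired analysis was possible because the series holds 1 group. Region lists carry no read counts, so depth behind a rank is unknown, and a member without a summit was below the lists' limits, not shown to be unbound.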

Other observations

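Shares of summits with each word are given for members and for all summits, with no test of a difference. Within 50 bp of the 48 strongest pooled summits, GAGAGA was at 6 (12.5%, beside 9.34% of 20670 nuclear pooled summits), TAATTG at 5 (10.4%, beside 7.02%), TAATTA at 2 (4.17%, beside 4.48%) and CACGTG at 0 (beside 1.79%). At the 5 reproducible summits, GAGAGA was at 1 (beside 14.5% of 539), and the other words were at 0. In the stretch from 250 bp before to 50 bp after the outermost start site, TAATTG was at 20 of 71 members (28.2%, beside 23.6% of all genes), GAGAGA at 13 (18.3%, beside 21.8%), TAATTA at 8 (11.3%, beside 15.5%) and CACGTG, a site bound by Myc-type factors, at 1 (1.41%, beside 5.82%).

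The stretches around the 5 reproducible summits had a median of 50.5% G and C, as did the 539 reproducible nuclear summits. Around the 48 strongest pooled summits the median was 40.1%, beside 37.6% for all pooled summits.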
